A study of Mus musculus with 6 samples.

Results

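The E2F transcription factors and their DP partners were followed in mouse Sertoli cells with and without the retinoblastoma gene Rb1. The members are the 10 genes E2f1 to E2f8, Tfdp1 and Tfdp2, and every probe whose platform gene symbol is one of them was taken, 27 of 45281 probes on the array. The array names 19057 genes by a single symbol. Sertoli cells are the somatic cells of the seminiferous tubules and nurse the developing germ cells. There were 3 arrays of Rb cKO cells (genotype Rb1 flox/-; Amh-Cre +) and 3 of Control cells (Rb1 flox/-, no Cre), all from mice 6 weeks old of a C57B6J/129SvEv background. In Rb cKO animals the Amh promoter drives Cre in Sertoli cells and acts on the floxed Rb1 allele, while the other allele is null in both groups, so that Control cells keep a single intact copy. The cells of both groups were sorted on a Sox9-GFP label. Cre was present in Rb cKO samples only, and what Cre does by itself and what follows the loss of Rb1 cannot be told apart. Nothing in the labels says that a group's arrays hold RNA of different animals. The p-values therefore reflect the spread over these samples, and that spread may be technical.

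E2F proteins bind DNA as dimers with a DP protein and control genes of DNA replication and cell division. The retinoblastoma protein and its relatives p107 (Rbl1) and p130 (Rbl2), together the pocket proteins, bind E2Fs and hold their target genes down in cells that do not divide, until cyclin-dependent kinases phosphorylate the pocket protein. E2f1, E2f2 and E2f3 are known as the activators that bind the retinoblastoma protein. E2f4 and E2f5 work mostly as repressors with p107 and p130, E2f6 represses without a pocket protein, and E2f7 and E2f8 are repressors that need no DP partner. Adult Sertoli cells are a textbook case of a cell type that has left the cell cycle.

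The arrays differed within each group. The share of probes detected ran from 42.98% to 50.04% on Rb cKO arrays and from 45.99% to 53.48% on Control arrays, where detection means a detection score over 0.95. Rb cKO replicate 1 and Control replicate 3 lay at the ends of the first principal component (58.9% of the variance), at -113.9 and 110.2. Rb cKO replicates 2 and 3 lay at -34.3 and 31.4, and Control replicates 1 and 2 at -0.6 and 7.2. Of 14 Sertoli cell markers, all 10 on the array were detected on at least 3 arrays, Sox9, Dhh and Cldn11 among them. All 9 spermatid markers on the array were detected as well, in both groups. Rb1 was lower in Rb cKO by both of its probes without passing the test. Probe ILMN_2679619 was at 8.24, 7.73 and 7.44 in Rb cKO, against 9.10, 9.34 and 8.64 in Control, on the normalised log2 intensity scale used for all levels here (a difference of -1.22 ± 0.32 (SE), adjusted p 0.399 in limma). Probe ILMN_2861644 gave -0.98 ± 0.34. Whether these probes fall in the deleted part of Rb1 was not determined.

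Of the 27 member probes, 18 passed the detection filter (detected on at least 3 of the 6 arrays) and were tested, and these stood for 8 of the 10 genes. No E2f7 or E2f8 probe passed it. None of the 18 was called at an adjusted p under 0.05 in limma, where 0.142% of 21805 tested probes were called higher in Rb cKO and 0% were called lower. At an unadjusted p under 0.05 there was 1 of 18 member probes higher, E2f1, against 4.63% of all tested probes, and 0 lower, against 1.76%. The 3 Rb cKO arrays exceeded the 3 Control arrays for 2 of 18, E2f1 and 1 E2f5 probe, against 8.04% of all tested probes, and lay below them for 0, against 4.01%. The median difference was 0.14 over the 18 member probes and 0.08 over all tested probes, and 66.7% of the member probes (12 of 18) had positive differences, against 57% of all tested probes. Without Rb cKO replicate 1 it was 9 of 18.

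**Figure D1:**
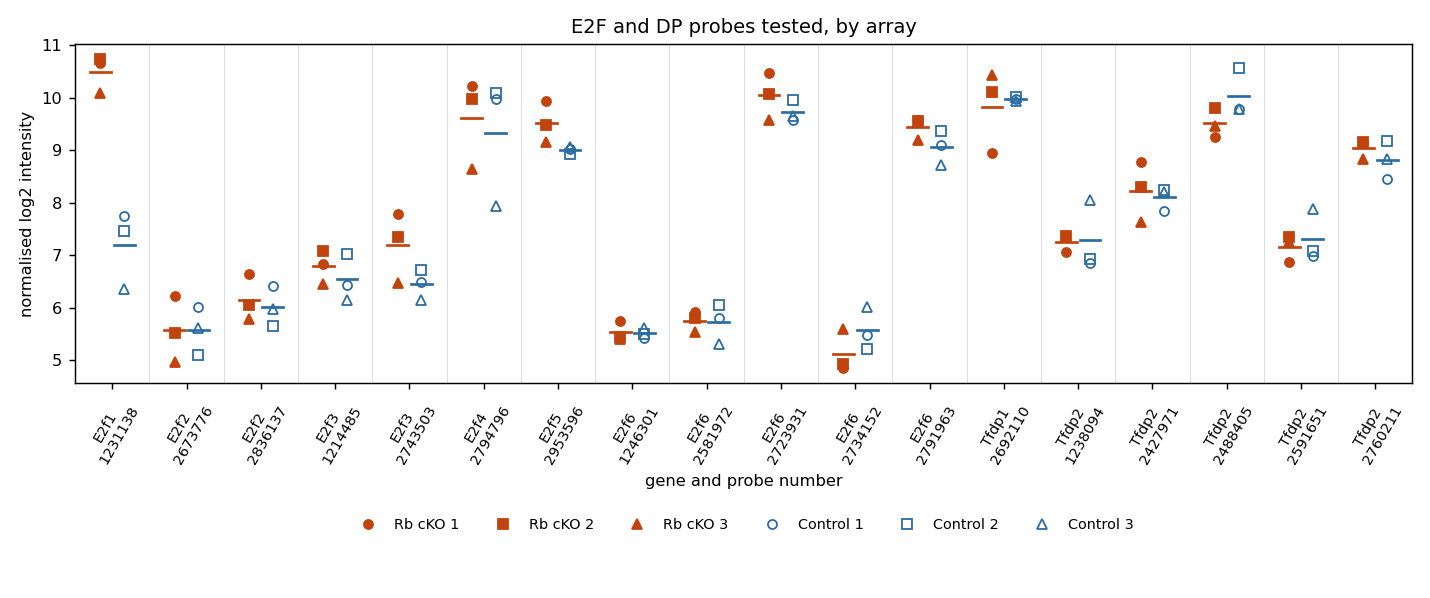
Normalised log2 intensity (vertical axis) of the 18 tested E2F and DP probes (horizontal axis, gene and probe number) on the 3 Rb cKO arrays (filled) and the 3 Control arrays (open), with a line at each group mean. E2f1 is the probe with a wide gap between the groups, 10.09 to 10.73 in Rb cKO and 6.36 to 7.74 in Control.

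E2f1, the activator most closely tied to the retinoblastoma protein, had the largest difference of the family. Its 1 probe was at 10.66, 10.73 and 10.09 on Rb cKO replicates 1 to 3, against 7.74, 7.47 and 6.36 on Control replicates 1 to 3. The groups were far apart: the lowest Rb cKO array exceeded the highest Control array by more than the whole range within either group. On the linear scale of the scanner, before any correction, the same probe read 1773.1, 1957.4 and 1078.3 in Rb cKO, against 235.4, 175.3 and 143.3 in Control, and it was detected on all 6 arrays. From 30 to 50 beads stood behind each of these intensities. The standard error over beads was 28.6 to 44.2 intensity units on Rb cKO arrays and 4.98 to 8 on Control arrays. The spread over beads was thus small beside the gap between the groups, and it says nothing about animals.

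The group means of E2f1 were 10.49 ± 0.36 in Rb cKO and 7.19 ± 0.73 in Control (SD, n = 3 each). The difference was 3.31 ± 0.42 (SE) log2 units, or 9.89-fold, with a 95% interval of 2.33 to 4.28. Its unadjusted p was 7.35e-05 and its adjusted p 0.0501 in limma, so it did not pass. By p it stood at rank 32 of 21805, directly after the 31 probes that were called. Taken within the replicate numbers 1 to 3, the differences of E2f1 were 2.92, 3.27 and 3.73. As its groups did not overlap, any pairing of the arrays would give 3 positive differences. With the replicate number as a block the difference had a SE of 0.25 and an adjusted p of 0.0835, and in that fit no probe was called.

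The size of the E2f1 difference depended little on the processing, and the call depended on it. Over 15 alternatives the difference ran from 2.81 to 3.58 and the Rb cKO arrays lay above the Control arrays in all 15, while the adjusted p ran from 0.0190 to 0.348. It was under 0.05 in 4: with the brightest probe of each gene (0.0190), with probes detected on all 6 arrays only (0.0293), with median scaling (0.0340) and with the deposited log2 values (0.0354). The difference was lowest, at 2.81 ± 0.34, without Rb cKO replicate 1 and Control replicate 3, an alternative chosen after seeing the data. Leaving out any single array kept the adjusted p between 0.0652 and 0.256, and 5 arrays in place of 6 also leave less to test with.

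**Figure D2:**
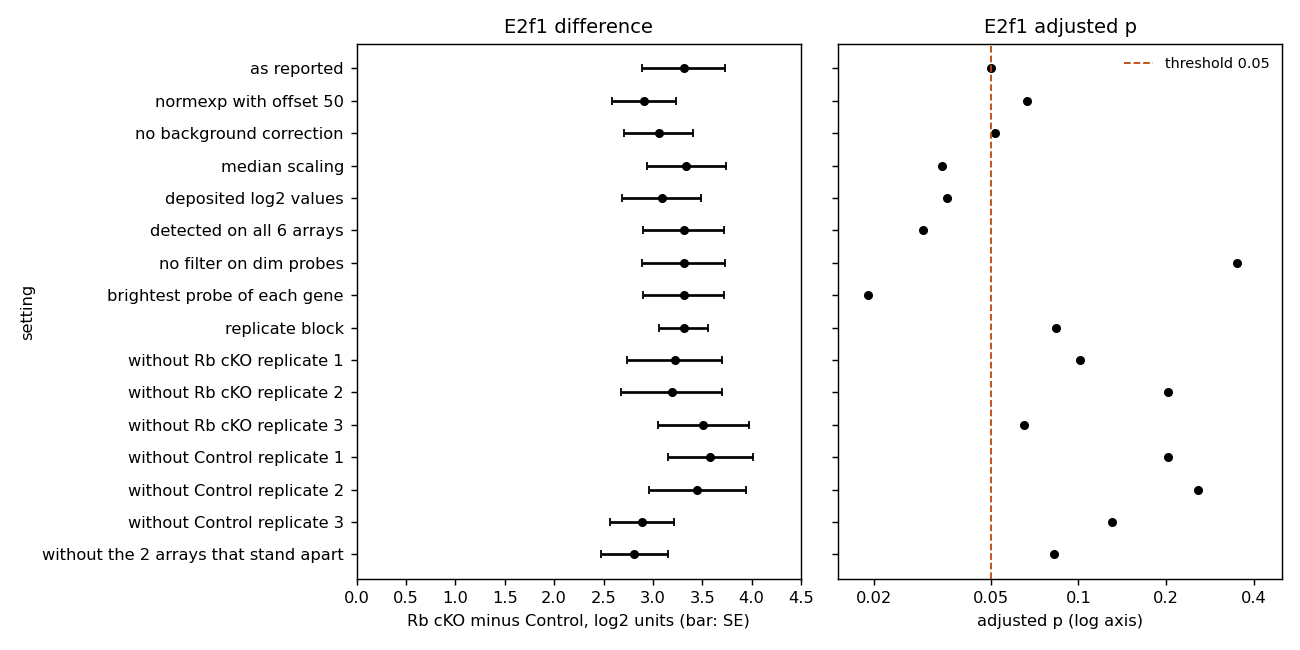
E2f1 under each processing setting (rows): the Rb cKO minus Control difference in log2 units with its SE (left) and the adjusted p on a log axis with the threshold of 0.05 as a dashed line (right). The difference stays between 2.81 and 3.58, while the adjusted p lies on both sides of the threshold.

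Markers of several other testis cells were also higher in Rb cKO, though no marker gene was called. Over the spermatogonia markers (dividing germ cells; 10 of 12 tested, Zbtb16 and Nanos3 detected on no array), the summed linear normalised intensity was 4683 to 5685 on Rb cKO arrays and 3754 to 4667 on Control arrays. Without Dazl, the brightest of these genes, the groups overlapped, at 2172 to 2805 in Rb cKO and 2162 to 2939 in Control. The brightest gene left in that sum was Uchl1, which differed by -0.46 ± 0.39 (SE). Of the 10 spermatogonia differences 8 were positive and 2 negative (Uchl1 and Dmrt1), with a median of 0.67 (from 0.30 to 0.79 over the alternatives). For spermatocyte markers (7 of 10 tested; Sycp3, Dmc1 and Hormad1 detected on no array) it was 13783 to 21360 in Rb cKO and 8985 to 16224 in Control, where the groups overlap. Endothelial markers (7 of 8; Kdr detected on no array) summed to 1471 to 3827 in Rb cKO and 331 to 572 in Control, and peritubular myoid markers (4 of 6; Tagln and Cnn1 detected on no array) to 3402 to 9903 in Rb cKO and 1677 to 1996 in Control, and neither pair of ranges overlaps. Acta2 alone made up 85.8% to 94.6% of the myoid sum, and without it the sums nearly met, at 280 to 531 in Rb cKO and 139 to 276 in Control. Without Robo4, the brightest endothelial marker, the endothelial sums were 478 to 1013 in Rb cKO and 253 to 418 in Control. Leydig markers (4 of 6, with Hsd3b1 detected on no array) summed to 2297 to 8584 in Rb cKO and 1168 to 2953 in Control. Without Insl3, the brightest Leydig marker, these sums were 754 to 2318 in Rb cKO and 402 to 748 in Control. The Leydig marker Star differed by 2.00 ± 0.37 (SE) and was detected on 3 Rb cKO arrays and 0 Control arrays. Leukocyte markers (5 of 10; Ptprc and Itgam detected on no array) summed to less in Rb cKO, 3106 to 4311 against 4751 to 5550 in Control, although the median difference over the 5 genes was positive, 1.35. Without Mrc1, the brightest leukocyte marker, they summed to more in Rb cKO, 922 to 1472 against 234 to 564 in Control. Sertoli markers summed to 39115 to 42977 in Rb cKO and 42422 to 50246 in Control, a sum of which Cldn11 made up 48.4% to 60.4%. All 10 tested Sertoli markers had negative differences, with a median of -0.47, from -0.07 for Cldn11 to -2.54 for Trf, and none was called. Spermatid markers overlapped, at 96357 to 123791 in Rb cKO and 87968 to 114487 in Control. The part of other cells in the E2f1 difference was not tested. In sorted cells measured in bulk, fewer cells of a type and less RNA per cell cannot be told apart.

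The other activators did not pass the test. E2f3 was measured by 2 probes. ILMN_2743503 was at 7.79, 7.34 and 6.47 in Rb cKO, against 6.49, 6.72 and 6.14 in Control, where the lowest Rb cKO array lay within the Control range. Its difference was 0.75 ± 0.39 (SE), with an interval of -0.15 to 1.66 and an adjusted p of 0.766 in limma. It was higher in Rb cKO in 3 of 3 pairs (1.30, 0.63 and 0.33), and with the replicate block it was 0.75 ± 0.27, with an unadjusted p of 0.0392 and an adjusted p of 0.314 in limma. It was 0.46 without Rb cKO replicate 1, 0.30 without that array and Control replicate 3, and 1.12 without Rb cKO replicate 3. ILMN_1214485 was at 6.84, 7.08 and 6.46 in Rb cKO, against 6.44, 7.03 and 6.15 in Control, a difference of 0.26 ± 0.33 with overlapping groups, higher in Rb cKO in 3 of 3 pairs (0.40, 0.05 and 0.31) and from 0.04 to 0.50 over the alternatives. E2f2 was detected by 2 of its 3 probes. ILMN_2836137 was at 6.64, 6.05 and 5.78 in Rb cKO, against 6.41, 5.65 and 5.97 in Control, a difference of 0.14 ± 0.34 with an interval of -0.65 to 0.93. ILMN_2673776 differed by -0.01 ± 0.41, and the third E2f2 probe was detected on no array. Both E2f3 probes were thus positive under every alternative run, without passing, while E2f2 took either sign. The intervals of all 4 tested probes end below the 2.33 at which the E2f1 interval begins.

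The pocket-dependent repressors E2f4 and E2f5 also did not pass. E2f4, the main partner of p130 in resting cells, was at 10.22, 9.98 and 8.65 in Rb cKO, against 9.98, 10.09 and 7.93 in Control. Replicate 3 was the low array in both groups. The difference was 0.28 ± 0.67 (SE), with an interval of -1.29 to 1.86, the widest of the family, and it was -0.42 without Control replicate 3 and -0.02 without Rb cKO replicate 1. E2f5 probe ILMN_2953596 was at 9.93, 9.48 and 9.16 in Rb cKO, against 9.02, 8.93 and 9.07 in Control. Its groups did not overlap, but the gap between the nearest arrays was small. The difference was 0.52 ± 0.28, with an interval of -0.15 to 1.18 and an adjusted p of 0.766, and it was 0.31 without Rb cKO replicate 1. The other E2f5 probe was detected on no array.

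E2f6, which represses germ line and other genes as part of a Polycomb complex, was covered by 6 probes. The probes ILMN_2723931 and ILMN_2791963, both designed to the RefSeq transcript, gave 0.32 ± 0.31 and 0.38 ± 0.28 (SE). ILMN_2723931 was at 10.48, 10.08 and 9.58 in Rb cKO, against 9.58, 9.96 and 9.66 in Control. ILMN_2791963 was at 9.57, 9.56 and 9.19 in Rb cKO, against 9.10, 9.37 and 8.72 in Control. The third probe of that transcript, ILMN_2734152, was detected on 1 Rb cKO array and 3 Control arrays and gave -0.45 ± 0.34, so that the probes of this gene disagree in sign. Over the alternatives these 3 probes ran from 0.06 to 0.55, from 0.13 to 0.53 and from -0.69 to -0.10 in that order. Single arrays moved them, to 0.10 for ILMN_2723931 without Rb cKO replicate 1, and to 0.20 for ILMN_2791963 and -0.23 for ILMN_2734152 without Control replicate 3. Of 3 probes designed to cDNA records, 2 were tested and differed by 0.02 ± 0.25 and 0.03 ± 0.29, and 1 was detected on no array. No adjusted p of an E2f6 probe was below 0.766 in limma.

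The atypical repressors E2f7 and E2f8 were near or below background in both groups. Of 4 E2f7 probes, 3 were detected on no array, and ILMN_2658795 was detected on 1 Rb cKO array and 0 Control arrays, at 5.07, 5.23 and 4.95 in Rb cKO, against 5.13, 5.10 and 4.61 in Control. The 1 probe of E2f8 was at 4.32, 4.38 and 4.36 in Rb cKO, against 4.40, 4.49 and 4.52 in Control, not well above background on any array. No fold is given for either gene, since both groups lay at the limit of detection. Over the whole family, 20 probes were designed to RefSeq transcripts, of which 16 were tested, and 7 to cDNA records, of which 2 were tested. Where each probe lies in its gene was not determined.

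The DP partners, which pair with E2Fs to bind DNA, did not pass either. Tfdp1 was at 8.94, 10.11 and 10.43 in Rb cKO, against 9.98, 10.01 and 9.93 in Control. The Control arrays lay close together (SD 0.04), while Rb cKO replicate 1 was low. The difference was -0.15 ± 0.41 (SE), with an interval of -1.10 to 0.80, and it was 0.30 without Rb cKO replicate 1. Tfdp2 was covered by 6 probes, of which 5 were tested. ILMN_2488405 was at 9.26, 9.81 and 9.47 in Rb cKO, against 9.79, 10.56 and 9.79 in Control, a difference of -0.53 ± 0.32 with an interval of -1.28 to 0.22, and it was lower in Rb cKO in 3 of 3 pairs. It was -0.27 without Control replicate 2, the highest array. ILMN_2427971, designed to the same transcript, gave 0.13 ± 0.35, and the remaining tested probes gave -0.02 ± 0.37, -0.16 ± 0.33 and 0.22 ± 0.29 (the last of these from 0.04 to 0.40 over the alternatives). The Tfdp2 probes thus shared no direction. ILMN_2438404, designed to a cDNA record, was detected on 1 array, Control replicate 3.

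Apart from E2f1, the 17 tested probes had differences from -0.53 to 0.75 with adjusted p from 0.766 to 0.995 in limma. Their intervals ran from -1.29 to 1.86, all below the lower bound of E2f1. These are separate intervals; a difference between members was not tested.

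**Figure D3:**
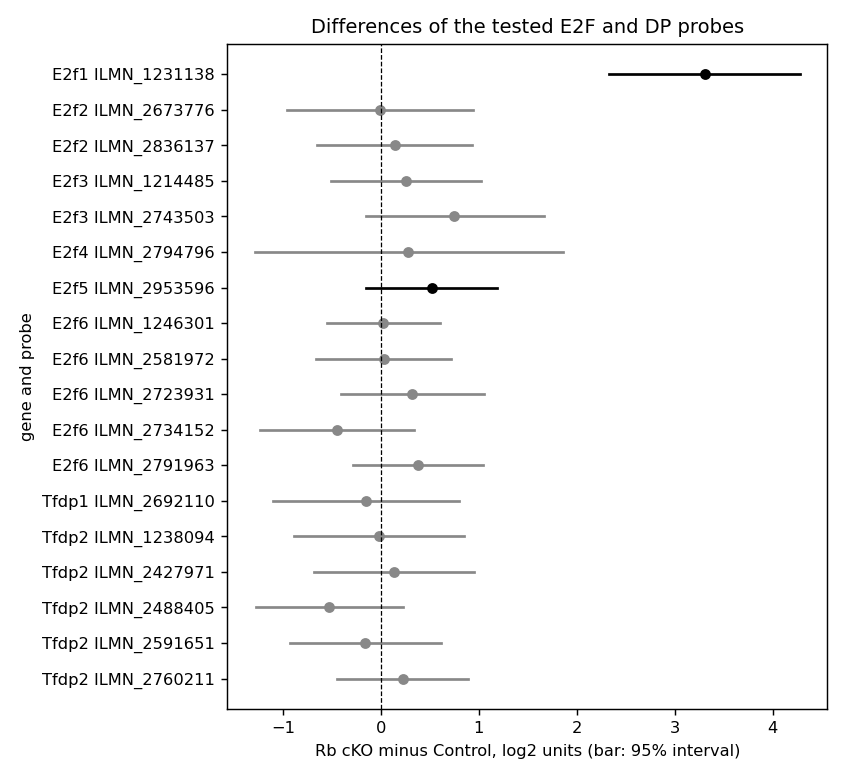
Rb cKO minus Control difference in log2 units (horizontal axis) with its 95% interval for each of the 18 tested E2F and DP probes (rows); black marks probes whose Rb cKO arrays all lay above the Control arrays. The interval of E2f1, 2.33 to 4.28, lies above those of the other 17 probes.

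Genes with an array profile like that of E2f1 were ranked by Pearson correlation over the 6 arrays, between brightest tested probes of 11692 named genes. The closest were Pold1, the catalytic subunit of a replicative DNA polymerase (r = 0.998), Orc1, a subunit of the origin recognition complex (0.995), Tpi1, a glycolytic enzyme (0.995), Snn (0.995) and Scara3 (0.994). Pold1 was at 10.10, 10.19 and 9.76 in Rb cKO, against 8.81, 8.67 and 8.28 in Control, a difference of 1.44 ± 0.27 (SE). Orc1 was at 6.74, 6.68 and 6.40 in Rb cKO, against 5.63, 5.55 and 5.29 in Control, a difference of 1.12 ± 0.25. Snn differed by 2.07 ± 0.28, Scara3 by 1.61 ± 0.25 and Tpi1 by 0.41 ± 0.23, with adjusted p of 0.0618, 0.0972 and 0.766 in limma, so none of the 5 passed; over 15 alternatives Snn passed in 3 and Scara3 in 1. The points share 2 groups of 3 arrays, and 133 genes had r over 0.95, so these correlations are a description of the ranking only.

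**Figure D4:**
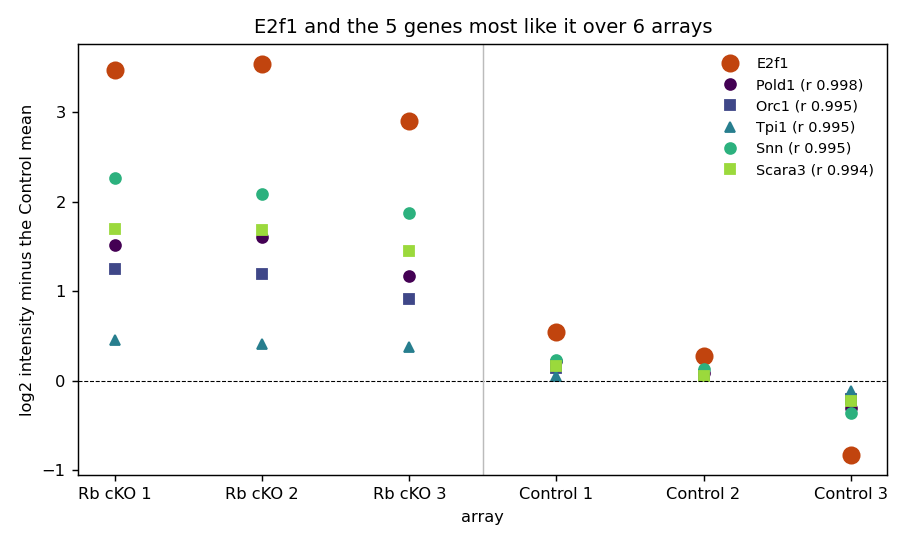
Log2 intensity relative to the Control mean (vertical axis) of E2f1 and the 5 genes with the highest Pearson correlation to it, on each of the 3 Rb cKO and 3 Control arrays (horizontal axis). All 6 genes are lower on Rb cKO replicate 3 than on the other Rb cKO arrays and lowest on Control replicate 3.

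Promoter sequence was examined for the letters that E2F-DP dimers are known to bind. The 4 motifs TTTCCCGC, TTTCGCGC, TTTGCCGC and TTTGGCGC were searched on both strands in the 250 bases before each listed start (RefSeq, GRCm38.p6); matches on opposite strands can overlap. A match was found for 2.16% of 27025 genes and for 1.86% of 32851 windows. Of the 8 members with a window, 3 had a match, E2f3, E2f7 and Tfdp1, and E2f2, E2f6, E2f8 and Tfdp2 had none of these letters in their windows. The window listed for E2f1 ends at a start 466 bases inside the annotated gene, so it is not the sequence before the gene and is not shown. The windows of E2f8 and Tfdp2 likewise belong to starts inside the gene, 477 bases in for E2f8. E2f4 and E2f5 are not in the table. The windows of the 3 members with a match are shown, to set the letters beside the values above; capitals mark the motif, which each carries on the opposite strand (as GCGGGAAA or GCGCGAAA). The E2f3 window is chr13:29986064-29986313 on the minus strand, with the match beginning 11 bases before the start. The E2f7 window is chr10:110745189-110745438 on the plus strand, with the match at 198 bases, and the first Tfdp1 window is chr8:13338501-13338750 on the plus strand, with the match at 43 bases.
E2f3: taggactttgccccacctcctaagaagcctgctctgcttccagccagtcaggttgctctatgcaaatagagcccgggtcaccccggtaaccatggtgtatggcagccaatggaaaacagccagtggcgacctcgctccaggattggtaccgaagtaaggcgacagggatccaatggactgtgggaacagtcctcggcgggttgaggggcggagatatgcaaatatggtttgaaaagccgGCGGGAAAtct
E2f7: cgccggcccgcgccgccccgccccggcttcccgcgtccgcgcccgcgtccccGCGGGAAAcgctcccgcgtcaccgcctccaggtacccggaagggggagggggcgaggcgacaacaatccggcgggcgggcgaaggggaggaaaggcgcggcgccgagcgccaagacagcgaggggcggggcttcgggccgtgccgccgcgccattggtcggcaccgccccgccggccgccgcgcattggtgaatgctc
Tfdp1: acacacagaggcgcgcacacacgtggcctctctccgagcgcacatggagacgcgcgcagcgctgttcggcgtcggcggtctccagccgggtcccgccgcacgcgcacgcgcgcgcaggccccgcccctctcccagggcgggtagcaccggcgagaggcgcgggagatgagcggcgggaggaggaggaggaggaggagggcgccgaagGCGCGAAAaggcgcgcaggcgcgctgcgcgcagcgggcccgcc

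The 3 members with a match had no call on the array: E2f3 differed by 0.75 and 0.26, Tfdp1 by -0.15, and E2f7 was near background. A match is a description of letters and not a binding site. Among 28 S phase target genes with a window, 9 had a match, Orc1 among them. Pold1 and Cdt1 had none of these letters in theirs. The Orc1 window ends at a start 3749 bases inside the annotated gene, so it is not the sequence before the gene. Matches counted for Dnmt1, Uhrf1, Cdc6, Pola1 and Mcm7 likewise lie before starts 7265, 976, 442, 232 and 228 bases inside. The start behind the Mcm5 matches lies 41 bases inside. The windows of Dnmt1 and Uhrf1 at the gene's own start had no match.

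Genes that E2Fs act on were then set beside the family, each by its brightest tested probe. Of 33 genes of S phase known as E2F targets, 29 were tested, and all 29 differences were positive, against 61.3% of 12277 genes tested, with a median of 1.12 against 0.12 over those genes. Of 15 other tested probes of these genes 11 were positive and 4 negative, the negative ones being 2 probes each of Gins2 and Rpa2 (from -0.37 to -0.16). Of the 29 genes 1 was called higher, Cdt1, which licenses replication origins (0.195% of all genes were called higher). None was called lower (0% of all genes). Cdt1 was at 9.06, 8.92 and 8.67 in Rb cKO, against 6.74, 6.95 and 6.47 in Control, and it rose by 2.16 ± 0.27 (SE; adjusted p 0.0484 in limma). This call was close to the threshold: over 15 alternatives the difference was 1.75 to 2.28 and the adjusted p 0.0190 to 0.267, under 0.05 in 3 of them. It was 0.0907 with the replicate block and 0.0748 to 0.267 with any single array left out. Mcm2 and Mcm4, subunits of the replicative helicase, differed by 2.36 ± 0.42 and 1.29 ± 0.25 without passing. The Rb cKO arrays lay above the Control arrays for 22 of 29 genes, against 9.56% of all genes, and below them for 0, against 4.33%. At an unadjusted p under 0.05, 23 of 29 were higher and 0 lower, against 5.96% and 1.81% of all genes. Per array, the list's median deviation from the Control mean was 1.19, 1.19 and 1.03 on Rb cKO replicates 1 to 3 and 0.21, 0.06 and -0.30 on Control replicates 1 to 3, so that Control replicate 3, lowest for E2f1, was lowest here as well. The list median was 0.84 without Rb cKO replicate 1 and Control replicate 3. Summed spermatogonia markers were 4683 to 5685 in Rb cKO and 3754 to 4667 in Control on the same arrays. Without Dazl the sums overlapped, and of the 10 tested spermatogonia markers 8 had positive and 2 negative differences. On these arrays the median difference was 1.27 for endothelial markers (7 of 7 positive) and 1.43 for Leydig markers (4 of 4). It was 1.35 for leukocyte markers (4 of 5) and 1.05 for peritubular myoid markers (4 of 4). Lower medians were those of spermatogonia (0.67), spermatocyte (0.51), spermatid (0.43) and Sertoli markers (-0.47). The part of other cells, spermatogonia included, in the S phase values was not tested.

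The pocket proteins, which hold E2Fs, had no call among 3 genes. Rbl1, itself a known E2F target, was at 9.21, 8.80 and 8.56 in Rb cKO, against 8.36, 7.35 and 6.85 in Control. It differed by 1.34 ± 0.42 (SE), and its adjusted p was 0.586 in limma. Its other tested probe gave 0.22 ± 0.26, and its remaining probe was not tested. Rbl2 differed by 0.20 ± 0.71 (from -0.54 to 1.03 over the alternatives), and its second probe was not tested. The MuvB complex, which joins E2f4 and p130 in resting cells and MYB and FOXM1 proteins in dividing ones, had 5 of 7 genes tested, none called and a median of 0.36 (from -0.15 to 0.64); Lin9 and Lin52 were detected on no array. Its histone-binding subunit Rbbp4 was at 7.41, 8.01 and 7.23 in Rb cKO, against 8.90, 8.60 and 8.77 in Control, a difference of -1.20 ± 0.29 with an adjusted p of 0.336. Other tested Rbbp4 probes gave -1.32 ± 0.82 and -1.80 ± 1.00. Foxm1, a driver of mitotic genes, differed by 0.96 ± 0.37 and by 1.14 ± 0.45 on another probe, and Mybl2 by 0.73 ± 0.61. Without Control replicate 3 these values were 0.63 for the first Foxm1 probe and 0.22 for Mybl2.

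Upstream of the pocket proteins, the G1 cyclins, their kinases and the phosphatase Cdc25a had 7 of 9 genes tested, 0 called, and a median of -0.33 (from -0.40 to 0.59 over the alternatives). Of the 7 differences 3 were positive and 4 negative. The negative ones were Cdk4 (-1.85 ± 1.29, another probe 0.53 ± 0.34), Cdc25a (-0.84 ± 0.75, another probe 0.09 ± 0.31), Ccnd2 (-0.35 ± 0.58) and Cdk2 (-0.33 ± 0.24). Ccne1, a cyclin and E2F target, was at 6.86, 7.68 and 7.91 in Rb cKO, against 6.65, 6.69 and 6.01 in Control, a difference of 1.03 ± 0.37 (SE). Ccnd1 differed by 0.92 ± 0.30, as did its other tested probe (0.92 ± 0.31), and Ccnd3 by 0.65 ± 0.44 (another probe 0.13 ± 0.25). Ccnd1 was at 0.59 without Rb cKO replicate 1 and Control replicate 3, and Ccnd3 at 0.39 without Control replicate 3 and 1.13 without Control replicate 1. The CDK inhibitors had 6 of 7 genes tested, 0 called, and a median of 0.52 (from -0.41 to 0.67). Cdkn2a, whose locus is a known E2F target, differed by 1.22 ± 0.31 (another probe 0.36 ± 0.28), with an adjusted p of 0.357 in limma, Cdkn1c by 0.87 ± 0.51 and Cdkn2d by -0.90 ± 0.54. Without Rb cKO replicate 1 alone Cdkn1c was at 0.38 and Cdkn2d at -0.32, and without Control replicate 3 as well they were at 0.04 and -0.09.

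Downstream of S phase, 10 of 16 genes of G2 and mitosis were tested and 0 were called, with a median of 0.73 (from 0.26 to 0.89 over the alternatives). Of the 10 differences 8 were positive and 2 negative. Ccna2, Ccnb2, Bub1 and Cenpe were detected on no array. Aurkb, a mitotic kinase, differed by 0.97 ± 0.33 (SE), Birc5, its partner, by 0.85 ± 0.28 (other probes 0.32 and 0.03) and the checkpoint gene Bub1b by 0.82 ± 0.37 (0.51 without Control replicate 3). Of 9 apoptosis genes known as targets of E2f1, 4 were tested, and 0 were called; Trp73, Pmaip1 and Hrk were detected on no array. Bbc3, a BH3-only protein, was at 10.65, 9.92 and 9.38 in Rb cKO, against 7.29, 7.93 and 7.36 in Control, a difference of 2.45 ± 0.39 (another probe 0.64 ± 0.25), and its adjusted p was 0.0977 in limma. Apaf1 and Casp8 differed by 1.49 ± 0.31 and 0.94 ± 0.27, and their other tested probes by 1.59 ± 0.32 and 1.08 ± 0.35. Bcl2l11, the remaining gene tested, went the other way, by -0.40 ± 0.36 (other probes 0.36 and -0.63). The median of these 4 genes was 1.22, from 0.03 to 1.37 over the alternatives.

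Among the partners and targets of E2f6 no gene was called. Of 12 genes of its repressor complex 10 were tested and 0 called, with 3 positive and 7 negative differences and a median of -0.11. Rybp differed by -1.66 ± 0.95 (SE), L3mbtl2 by 0.75 ± 0.51 and Ring1 by -0.27 ± 0.24 (another probe 0.29 ± 0.31). Rybp was at -0.60 without Rb cKO replicate 1, -2.54 without Rb cKO replicate 3 and -0.06 without Rb cKO replicate 1 and Control replicate 3. L3mbtl2 was at 0.18 without Control replicate 3, and Ring1 at -0.17 without Rb cKO replicate 1. Of 7 germ line genes that E2f6 is known to silence in mouse somatic cells, 5 were tested and 0 called, with a median of 0.39 (from -0.04 to 0.60 over the alternatives). Ddx4 differed by 0.55 ± 0.30 (another probe -1.15 ± 0.87) and Stag3 by 0.39 ± 0.35. Over the alternatives Ddx4 ran from 0.39 to 0.84, Stag3 from 0.09 to 0.67 and Tuba3a from 0.25 to 0.63. Tuba3a differed by 0.39 ± 0.29 (other probes -0.19, -0.96 and -1.01), but its sequence is close to that of Tuba3b and the probes may not separate them. These genes are also expressed by germ cells, whose spermatocyte markers summed to 13783 to 21360 in Rb cKO and 8985 to 16224 in Control, and the part of germ cells in their levels was not tested.

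**Figure D5:**
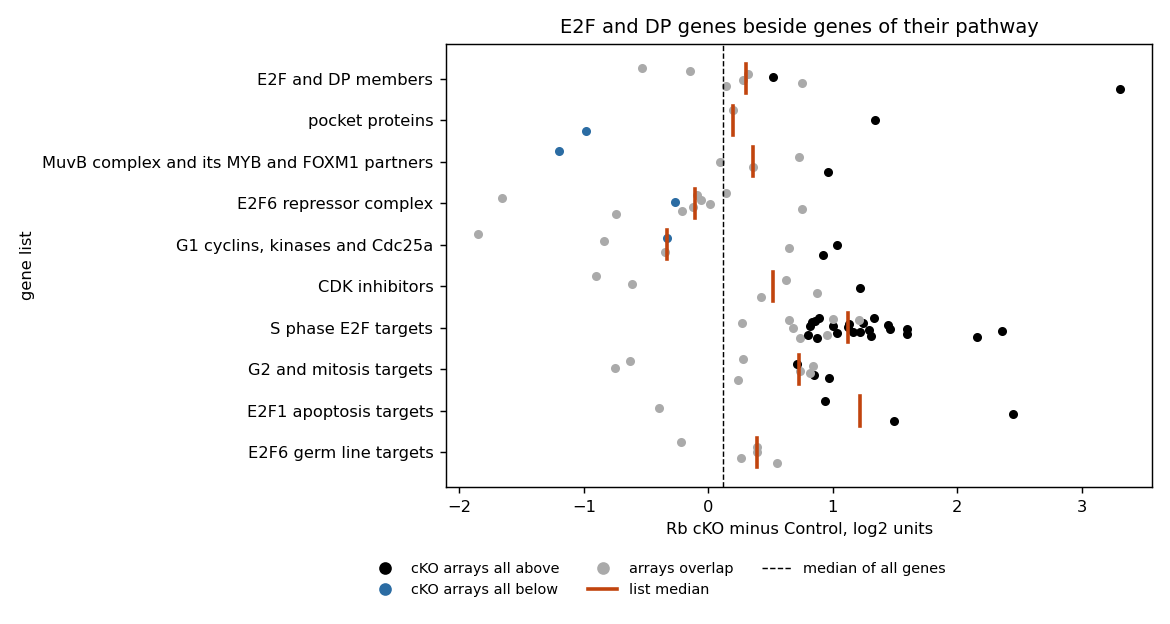
Rb cKO minus Control difference in log2 units (horizontal axis) of each tested gene, by its brightest probe, in the E2F and DP family and in 9 lists of its pathway (rows), with list medians as bars and the median of all genes, 0.12, as a dashed line. In the S phase list all 29 genes lie above 0, while in the family E2f1 lies apart, at 3.31, from the other 7 genes.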

How the data were processed

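Per the labels, biotinylated cRNA was hybridised to 6 Illumina bead arrays, and the submitters' processing notes name BeadStudio. The deposited tables give the mean intensity per probe, the spread over beads (also an intensity), the count of beads and a detection score, a fraction from 0 to 1. The deposited series table holds log2 values. They match the log2 of the intensity after the 75th percentile of its array and then the probe's median over 6 arrays are taken off. Through that formula all 45281 probe names were joined to a scanner probe of their own, within 0.000688. Gene symbols come from the platform annotation (34885 probes with 1 symbol, 18 with several, 10378 with none).

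Intensities were normalised with neqc (offset 16) in limma 3.58.1 (R 4.3.3). The 21805 probes detected on at least 3 arrays were tested with lmFit and eBayes, two-sided, with Benjamini-Hochberg adjustment over all of them. All p-values here are limma's. For lists, each gene has its brightest tested probe, and no list test was run. Named are all member probes, the Rb1, Rbl1 and Rbl2 probes, the 3 genes of each pathway list with the smallest p and the 5 genes most correlated with E2f1. Some other genes of the lists are named as well. Members and lists were chosen with earlier results of these data known. The code was tested on simulated data. The number of arrays limits the precision.

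Both groups carry replicate numbers 1 to 3, and arrays that share a number deviated together from their group means (r of 0.262, 0.410 and 0.473, each over 0.1). The numbers were therefore used as pairs for the differences within a number and for the replicate block, on these correlations alone. The same correlations between arrays of different numbers were not computed, so these values do not show that the numbers are pairs. All SE of differences, intervals and p-values come from a fit with the group as its only term, unless the replicate block is named. The alternatives were other background corrections, scaling, filters, 1 probe per gene, the replicate block and leaving out arrays.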

Additional observations from a re-analysis of the deposited data

How the results depend on the processing

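Over the alternatives the count of E2F and DP probes called was 0 or 1, the 1 being E2f1. It was 1 with the brightest probe of each gene, with median scaling, with only probes detected on all 6 arrays and with the log2 values as deposited. The count over all probes, 31 as reported, was 9 with normexp at offset 50, 13 with no background correction, 56 with the brightest probe of each gene, 1 with no filter on dim probes, 0 with the replicate block (smallest adjusted p 0.0529; 3257 probes at an unadjusted p under 0.05) and 6 without Rb cKO replicate 1 and Control replicate 3, the 2 arrays that stood apart (left out after seeing the data). Leaving out 1 array gave 0 to 15. With any Control array left out it was 0, while 2622, 1058 and 874 probes had an unadjusted p under 0.05 without replicates 1, 2 and 3 in that order, and it was 8, 2 and 15 without Rb cKO replicates 1 to 3. No member was called as reported, so the replicate block had no member call to end. It ended all 31 calls, Cdt1 included. Its smallest adjusted p for a member other than E2f1 was 0.314. The S phase list median, 1.12, was 0.87 with normexp at offset 50, 0.89 with no background correction, 0.88 with the deposited log2 values, 0.84 without those 2 arrays, 1.02 with no filter on dim probes, and leaving out 1 array gave 0.89 to 1.27. The causes were not tested, beyond the number of probes tested and of arrays that these settings change by construction. For the 9 member probes that did not pass the detection filter, signal over background limits what can be seen.

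Of 17 tested member probes other than E2f1, 9 changed sign under some alternative, and none was called under any. Without the 2 arrays that stood apart, E2f2 ILMN_2836137 was at -0.12, E2f4 at -0.72, E2f6 ILMN_1246301 and ILMN_2581972 at -0.03 and -0.26, Tfdp1 at 0.27, and Tfdp2 ILMN_1238094, ILMN_2427971 and ILMN_2591651 at 0.47, -0.09 and 0.27. E2f6 ILMN_1246301 was at -0.03 with median scaling and -0.02 with the deposited log2 values, Tfdp2 ILMN_1238094 at 0.04 and 0.01, and E2f2 ILMN_2673776 at 0.00 with normexp. Leaving out 1 array gave ranges of -0.34 to 0.29 for E2f2 ILMN_2673776, -0.10 to 0.34 for E2f2 ILMN_2836137, -0.42 to 0.77 for E2f4 ILMN_2794796, -0.08 to 0.08 for E2f6 ILMN_1246301, -0.18 to 0.19 for E2f6 ILMN_2581972, -0.45 to 0.30 for Tfdp1 ILMN_2692110, -0.23 to 0.37 for Tfdp2 ILMN_1238094, -0.14 to 0.44 for Tfdp2 ILMN_2427971 and -0.33 to 0.12 for Tfdp2 ILMN_2591651. Median scaling moved the median of all probes to 0.13, from 0.08 as reported. Of 33 probes of other genes followed over the alternatives, 3 changed sign. Mybl2 was at -0.19 and L3mbtl2 at -0.03 without the 2 arrays that stood apart. Rbl2 was at -0.54 to 0.75 when 1 array was left out.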
